A study of Mus musculus with 10 samples.

Results

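The midbrain identity genes followed here are 10 genes that mark the midbrain or neuron types made there: Otx1, Otx2, Pou4f1, Tal1, Tal2, Gata2, Gata3, Th, Slc6a3 and Nr4a2. They were taken by symbol from a table of 22552 genes in cerebella dissected from mouse embryos at E13.5, and all 10 were found. The table holds RPKM, a read count divided by gene length and by library size, for 4 Ezh2 deletion libraries and 4 wild type libraries, all on the mixed background labelled C57BL/6;129. In the Ezh2 deletion embryos Pax7-Cre removed floxed Ezh2, so loss was limited to cells that had expressed the Pax7 driver, and a Rosa-YFP allele was bred in to guide dissection. Whether the wild type embryos carried Cre or the reporter is not given in the sources used here. Nothing states that each library is another embryo, and the p-values below rest on library-to-library spread that could be technical in part.

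The midbrain lies directly in front of the cerebellum and shares a border with it, the isthmus. Otx2 is required for forebrain and midbrain identity and holds the front side of that border, while Gbx2 holds the hindbrain side. Within the midbrain Tal2, Gata2 and Helt drive the GABAergic fate of midbrain neurons, Pou4f1 marks tectal and red nucleus neurons, and Nr4a2, Th and Slc6a3 mark dopaminergic neurons. Ezh2 is the catalytic subunit of the second Polycomb repressive complex (PRC2) and writes the repressive histone mark H3K27me3, and developmental transcription factor genes with CG-rich promoters are its classic targets in mammals.

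The promoters of 4 members are shown because the results turn on these genes: Pou4f1 and Tal1, which passed the test between genotypes, and Tal2 and Otx2, which had the largest SDs in RPKM among the deletion libraries. Each is the 250 bases upstream of the first start listed in RefSeq (GRCm38.p6), read along the gene, with CG dinucleotides in capitals. The windows are chr14:104468000-104468249 on the minus strand for Pou4f1, chr4:115056176-115056425 on the plus strand for Tal1, chr4:53779451-53779700 on the plus strand for Tal2 and chr14:48667645-48667894 on the minus strand for Otx2.
Pou4f1: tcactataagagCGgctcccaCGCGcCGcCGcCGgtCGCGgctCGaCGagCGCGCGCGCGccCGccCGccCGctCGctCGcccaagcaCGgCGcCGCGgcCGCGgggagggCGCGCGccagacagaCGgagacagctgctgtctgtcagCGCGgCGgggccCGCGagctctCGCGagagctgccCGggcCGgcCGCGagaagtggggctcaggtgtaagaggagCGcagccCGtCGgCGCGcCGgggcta
Tal1: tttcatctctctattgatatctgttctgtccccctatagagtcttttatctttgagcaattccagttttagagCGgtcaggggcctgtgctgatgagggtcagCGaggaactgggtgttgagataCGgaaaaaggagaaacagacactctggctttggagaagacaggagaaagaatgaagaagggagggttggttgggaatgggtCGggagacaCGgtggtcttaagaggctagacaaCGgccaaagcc
Tal2: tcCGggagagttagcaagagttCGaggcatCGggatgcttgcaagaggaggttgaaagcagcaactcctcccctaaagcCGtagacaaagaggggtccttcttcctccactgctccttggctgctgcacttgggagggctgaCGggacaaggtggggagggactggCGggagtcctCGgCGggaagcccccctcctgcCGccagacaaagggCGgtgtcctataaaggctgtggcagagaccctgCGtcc
Otx2: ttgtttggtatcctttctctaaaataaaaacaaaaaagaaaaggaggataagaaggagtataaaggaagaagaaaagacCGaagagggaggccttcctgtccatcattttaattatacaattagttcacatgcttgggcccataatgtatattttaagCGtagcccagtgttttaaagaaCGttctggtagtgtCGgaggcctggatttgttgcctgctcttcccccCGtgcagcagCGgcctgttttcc

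The Pou4f1 window held 47 CG dinucleotides, a number reached by 0.25% of the 32851 promoter windows of the same length. Of the other windows shown, Tal2 held 11 CG and Tal1 and Otx2 6 each, against a median of 6 over all windows. Alternative starts held more: 16 CG for Tal1, reached by 25.4% of windows, and 8, 14 and 9 CG for Otx2. Nr4a2 came next to Pou4f1 with 44 CG, reached by 0.539% of windows. Windows were found for 9 members, Otx1 having none in the table, and with alternative starts they numbered 14. Otx2 gave 4 of them, the first 2 overlapping, so the counts that follow are of windows and not of genes. Searched on both strands, the letters GATA, the core bound by Gata factors, occurred in 5 of the 14 and in 53.6% of all windows. CANNTG, the E-box of basic helix-loop-helix factors such as Tal1, occurred in 7 of the 14 and in 66.2% of all windows. TAATCC, the core bound by Otx proteins, occurred in 1 of the 14, at a start of Otx2 other than the one shown, and in 6.25% of all windows. The Tal1 window shown held 4 GATA matches and the Tal2 window 0.

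Ezh2 itself, the gene targeted, was at 53.8, 48.7, 51.1 and 64.4 RPKM in Ezh2 deletion 1 to 4, against 73.6, 84.7, 78.2 and 78.2 RPKM in wild type 1 to 4. The 3 libraries Ezh2 deletion 1 to 3 had Xist RNA, and the sum of 4 Y-linked genes was at most 0.134 RPKM in them, against 42.7 RPKM in Ezh2 deletion 4 and 45.0 to 50.8 RPKM in wild type. Genotype can therefore be compared within libraries carrying Y-linked RNA only through Ezh2 deletion 4, and that value is given beside each called member and in 1 place for the other called genes. Total depth is unknown, but from the steps of 1 read in low genes the deletion libraries were 1.25 to 2.11 times as deep as wild type 1, and the other wild type libraries up to 1.35 times as deep. The 9 cerebellar markers summed to 470, 445, 432 and 408 RPKM in Ezh2 deletion 1 to 4, against 464, 490, 564 and 535 RPKM in wild type 1 to 4. Zic1, the most abundant of them, averaged 175 ± 13.47 RPKM in Ezh2 deletion and 174 ± 13.3 RPKM in wild type (SD, n = 4 each). Of the others, 2 were called lower in Ezh2 deletion, as given below. In such bulk tissue, a change in the number of cells of a type cannot be told apart from a change in RNA per cell, in either direction. Nor can the amount of adjoining midbrain tissue in each dissection be told apart from a change within cerebellar cells, and its part was not tested.

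Tested across all genes, 2 of the 9 members that passed the level filter were higher in Ezh2 deletion, Pou4f1 and Tal1, and 0 were lower (limma on log2(RPKM + 0.25), adjusted p under 0.05). Over all 14279 genes tested, 2.71% were higher and 0.742% lower by the same rule. At an unadjusted p under 0.05 the members numbered 5 higher and 0 lower, where 9.74% of all genes were higher. The tested members had a median log2 difference of 1.17, with all 9 above 0, against -0.012 and 46.1% above 0 over all genes tested. The filter asked for a mean of 0.25 RPKM over the 8 libraries. Each of these 9 members also averaged at least 0.268 RPKM in wild type alone, and Slc6a3 stayed below the filter. The members did not share 1 pattern: 3 of them, Pou4f1, Tal1 and Th, separated the genotypes in every library, and the others overlapped between genotypes. Of those 3, Tal1 and Th also varied among the wild type libraries, over ranges of 7.57-fold and 2.03-fold.

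**Figure D1:**
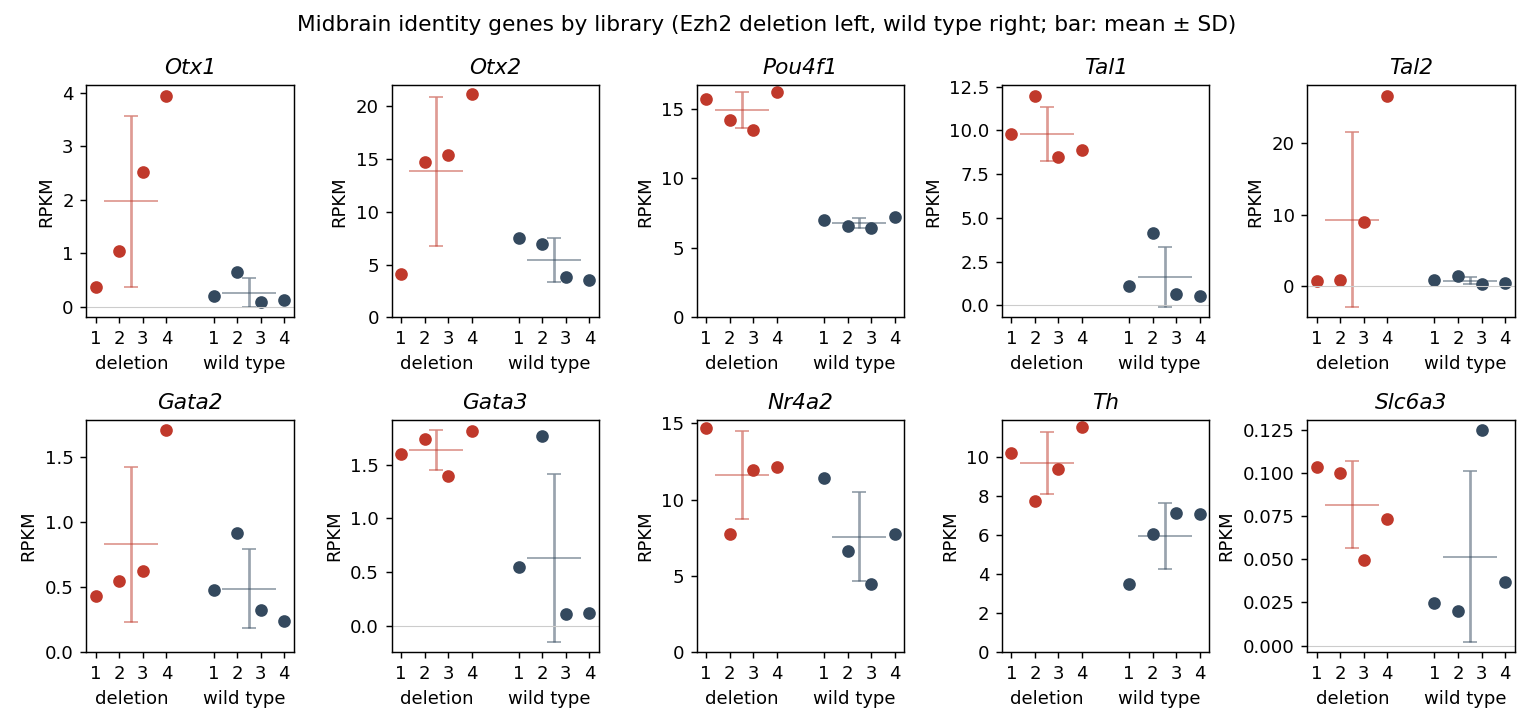
RPKM of the 10 midbrain identity genes in each library, with Ezh2 deletion 1 to 4 on the left of each panel and wild type 1 to 4 on the right; bars give the mean ± SD of 4 libraries. Pou4f1, Tal1 and Th have every deletion point above every wild type point. Ezh2 deletion 4 is the highest deletion point for 7 of the 9 tested members, Tal2, Otx1 and Gata2 among them.

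Among the transcription factors of midbrain neurons, Pou4f1, a POU-homeodomain factor also known as Brn3a, showed the most even change. It was at 15.7, 14.2, 13.4 and 16.2 RPKM in Ezh2 deletion 1 to 4, against 6.98, 6.56, 6.44 and 7.21 RPKM in wild type 1 to 4. Every deletion library was high, every wild type library was low, and the groups lay far apart. Pou4f1 differed by 1.101 on the log2 scale (SE 0.073; limma, adjusted p = 2.29e-05), with means 2.19-fold apart. The exact two-sided permutation test on log2 values gave p = 0.0286, the smallest that 70 arrangements allow. In Ezh2 deletion 4 against wild type, within libraries carrying Y-linked RNA, the log2 difference was 1.23 (limma adjusted p = 3.62e-04), a fit that takes the spread of that single deletion library from the others.

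Pou4f1 is also a marker of peripheral sensory neurons, so their markers are given beside it. Summed over 9 sensory neuron markers, levels were 40.04 to 57.9 RPKM in Ezh2 deletion and 37.0 to 45.8 RPKM in wild type. Of 5 markers tested, Tlx3, a homeobox factor of sensory and excitatory spinal neurons, rose (12.3 ± 2.01 RPKM in Ezh2 deletion and 7.59 ± 1.43 RPKM in wild type, SD, n = 4 each; limma adjusted p = 0.0419) and 0 fell (2 higher and 0 lower at an unadjusted p under 0.05). The Tlx3 call held in 10 of 20 alternatives and was lost when any library but Ezh2 deletion 2 or wild type 4 was left out, with limma adjusted p of 0.0887 to 0.117. Prph, the most abundant of them, averaged 25.4 ± 4.39 RPKM in Ezh2 deletion and 23.7 ± 3.86 RPKM in wild type, and Scn10a, which defines pain-sensing neurons, did not exceed 0.0242 RPKM in any library. Their part in the Pou4f1 result was not tested.

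Tal1, a basic helix-loop-helix factor that drives GABAergic fate in the hindbrain and spinal cord and is also a master regulator of blood, rose most among the called members. It was at 9.76, 11.99, 8.48 and 8.90 RPKM in Ezh2 deletion 1 to 4, against 1.11, 4.14, 0.643 and 0.546 RPKM in wild type 1 to 4. All deletion libraries were high and close together, while wild type 2 stood above the other wild type libraries without reaching any deletion library. On the log2 scale Tal1 differed by 2.79 (SE 0.533; limma, adjusted p = 0.0408; exact two-sided permutation p = 0.0286). The call was lost when any of the 4 deletion libraries or wild type 1, 3 or 4 was left out, with limma adjusted p between 0.0915 and 0.116. Without wild type 2 it held, at 3.33 (limma adjusted p = 3.64e-05). Set against wild type, Ezh2 deletion 4 by itself gave 2.67, which missed the threshold (limma adjusted p = 0.197).

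Blood and vessel markers, which bear on Tal1 and on the Gata genes, are given for the same libraries. The 12 erythroid markers summed to 562, 348, 265 and 579 RPKM in Ezh2 deletion 1 to 4, against 328, 385, 325 and 373 RPKM in wild type 1 to 4. These sums overlapped, with Ezh2 deletion 1 and 4 above every wild type library. Ezh2 deletion 3 had the lowest erythroid sum and, among the deletion libraries, the lowest Tal1. Ezh2 deletion 2 had the highest Tal1, 11.99 RPKM, with an erythroid sum within the wild type range. Ezh2 deletion 4 had the highest erythroid sum, with Tal1 at 8.90 RPKM. The part of blood cells in the Tal1 and Gata results was not tested. Gata1, the partner of Tal1 in red cells, was at most 0.119 RPKM in Ezh2 deletion and 0.0802 RPKM in wild type. Of 9 erythroid markers tested 0 were called (limma; 1 higher and 1 lower at an unadjusted p under 0.05), and the most abundant, Hbb-y, averaged 408 ± 149 RPKM in Ezh2 deletion and 307 ± 26.997 RPKM in wild type (SD, n = 4 each). The 10 endothelial markers summed to 60.8 to 88.1 RPKM in Ezh2 deletion and 69.1 to 83.1 RPKM in wild type, with 0 of 10 called (limma; 0 at an unadjusted p under 0.05) and Cldn5 the most abundant. Of the markers of megakaryocytes and mast cells, summing to 13.1 to 16.0 RPKM in Ezh2 deletion and 14.8 to 17.2 RPKM in wild type and made up mostly of Gp1bb, 0 of 3 tested were called (limma; 0 at an unadjusted p under 0.05). Mcpt4, a mast cell protease, was listed at 0 in every library.

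Tal2, the paralog of Tal1 that is required for GABAergic neurons of the midbrain, had another pattern. It was at 0.687, 0.814, 9.02 and 26.6 RPKM in Ezh2 deletion 1 to 4, against 0.859, 1.44, 0.314 and 0.447 RPKM in wild type 1 to 4. Ezh2 deletion 3 and 4 were high, while Ezh2 deletion 1 and 2 lay within the wild type range, so the groups overlapped. The range within Ezh2 deletion was 38.8-fold, and only 0.931% of tested genes had a larger SD of log2 values among the deletion libraries. The log2 difference of 2.10 (SE 1.21) did not pass (limma adjusted p = 0.426; exact two-sided permutation p = 0.200), and was 1.18 without Ezh2 deletion 4. Ezh2 deletion 1 and 2 thus held Tal1 at 9.76 and 11.99 RPKM but Tal2 below 1 RPKM.

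The zinc finger factors Gata2 and Gata3 act with Tal genes in GABAergic neurons. Gata2, the selector of GABAergic fate in the midbrain, was at 0.433, 0.548, 0.628 and 1.71 RPKM in Ezh2 deletion 1 to 4, against 0.478, 0.920, 0.327 and 0.237 RPKM in wild type 1 to 4. Ezh2 deletion 4 alone lay above all wild type libraries, and the difference of 0.49 (SE 0.368) did not pass (limma adjusted p = 0.532). It was 0.16 without Ezh2 deletion 4, 0.32 without wild type 4 and 0.74 without wild type 2. Gata3, which acts after Gata2, was at 1.59, 1.74, 1.40 and 1.81 RPKM in Ezh2 deletion 1 to 4, against 0.550, 1.76, 0.110 and 0.120 RPKM in wild type 1 to 4. The deletion libraries were alike, and wild type 2 reached their level. The Gata3 difference was 1.47 over all libraries (SE 0.519, limma adjusted p = 0.194) and 1.16 without wild type 3. Only 1 of 20 alternatives called Gata3, at 1.99 without wild type 2 (limma adjusted p = 0.00703). That library held the highest wild type value in 5 of the 9 tested members (Otx1, Tal1, Tal2, Gata2 and Gata3), where it was highest of the wild type libraries in 21.9% of all genes tested.

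Gata2 and Gata3 also mark serotonergic neurons of the hindbrain, and the 6 serotonergic markers summed to 1.23 to 1.45 RPKM in Ezh2 deletion and 0.862 to 1.34 RPKM in wild type. Fev, which defines these neurons, was at most 0.102 RPKM in Ezh2 deletion and 0.0634 RPKM in wild type. Of 3 markers tested, the serotonin transporter Slc6a4 rose (0.445 ± 0.140 RPKM in Ezh2 deletion and 0.126 ± 0.0818 RPKM in wild type, SD, n = 4 each; limma adjusted p = 0.0491) and 0 fell (0 at an unadjusted p under 0.05). The Slc6a4 call held in 4 of 18 alternatives. It was lost at pseudocounts of 1 (0.0585) and 0.05 (0.0606) by limma adjusted p, and with any library but Ezh2 deletion 1 left out (0.0599 to 0.136). Without Ezh2 deletion 1 the gene was below the filter. The most abundant, Maob, averaged 0.501 RPKM in Ezh2 deletion and 0.420 RPKM in wild type.

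The homeobox genes Otx1 and Otx2 mark the midbrain and forebrain up to the isthmus. Otx2 was at 4.15, 14.7, 15.3 and 21.1 RPKM in Ezh2 deletion 1 to 4, against 7.55, 6.90, 3.86 and 3.51 RPKM in wild type 1 to 4. Ezh2 deletion 2, 3 and 4 lay above every wild type library, while Ezh2 deletion 1 lay within the wild type range. A log2 difference of 1.17 (SE 0.549) missed the threshold (limma adjusted p = 0.338; exact two-sided permutation p = 0.0857). Only 1 of 20 alternatives called Otx2, at 1.65 without Ezh2 deletion 1 (limma adjusted p = 0.0409). Without Ezh2 deletion 4 the Otx2 difference was 0.89. Otx1 was at 0.364, 1.05, 2.52 and 3.95 RPKM in Ezh2 deletion 1 to 4, against 0.200, 0.662, 0.0844 and 0.126 RPKM in wild type 1 to 4. The same 3 deletion libraries lay above every wild type library. Its difference of 1.87 (SE 0.621) did not pass (limma adjusted p = 0.174; exact two-sided permutation p = 0.0571). Otx1 too was called in only 1 of 20 alternatives, at 2.38 without Ezh2 deletion 1 (limma adjusted p = 0.0459). Without Ezh2 deletion 4 the Otx1 difference was 1.45 (limma adjusted p = 0.268).

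**Figure D2:**
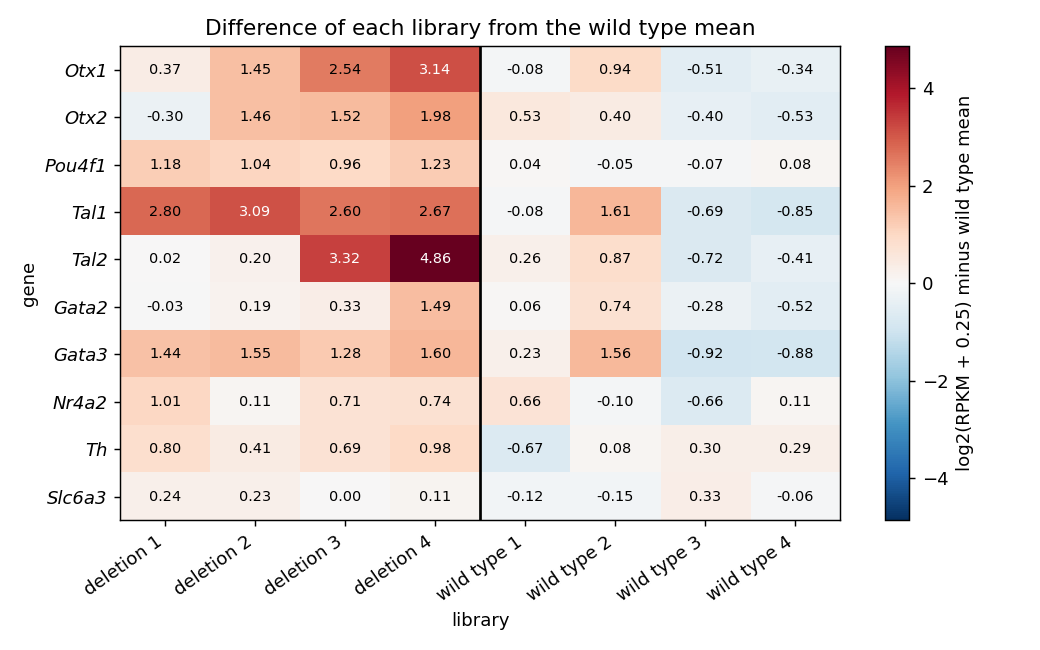
Log2(RPKM + 0.25) of each member in each library minus the mean of the 4 wild type libraries, with Ezh2 deletion 1 to 4 on the left and wild type 1 to 4 on the right. Pou4f1 is between 0.96 and 1.23 in the deletion libraries, Tal2 is at 0.017 and 0.20 in Ezh2 deletion 1 and 2 but at 3.32 and 4.86 in Ezh2 deletion 3 and 4, and wild type 2 reaches 1.61 for Tal1 and 1.56 for Gata3.

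Otx2 is also expressed in choroid plexus, the secretory epithelium attached to the cerebellar roof. Leaving out Lmx1a, which the cerebellar rhombic lip also expresses, the 7 choroid plexus markers summed to 17.8, 164, 1.24 and 1.33 RPKM in Ezh2 deletion 1 to 4, against 1.62, 6.21, 0.629 and 1.64 RPKM in wild type 1 to 4. Ttr, the transthyretin gene that dominates that sum, was at 16.2, 152, 0.382 and 0.188 RPKM in Ezh2 deletion 1 to 4. The sum was highest in Ezh2 deletion 2, next in Ezh2 deletion 1, and within the wild type range in Ezh2 deletion 3 and 4. The part of choroid plexus in the Otx2 result was not tested. Otx2, not called over all libraries, differed by 1.07 on the log2 scale without Ezh2 deletion 2 (limma adjusted p = 0.446). It differed by 1.05 without Ezh2 deletion 3 and by 0.89 without Ezh2 deletion 4. Ezh2 deletion 1, next to the highest in the choroid plexus sum, had the lowest Otx2 of the deletion libraries. Of 6 markers tested 0 were called (limma; 0 at an unadjusted p under 0.05), and Lmx1a, the most abundant, averaged 25.9 ± 3.02 RPKM in Ezh2 deletion and 26.0 ± 1.41 RPKM in wild type (SD, n = 4 each).

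Forebrain tissue also carries Otx genes. The 9 forebrain markers summed to 7.33 to 12.2 RPKM in Ezh2 deletion and 8.64 to 9.78 RPKM in wild type, most of it Tbr1, which cerebellar nuclear neurons also express. Leaving out Tbr1, a choice made after its values were seen, the other 8 markers summed to 2.21, 3.53, 1.99 and 3.27 RPKM in Ezh2 deletion 1 to 4, against 0.367, 0.367, 0.219 and 0.145 RPKM in wild type 1 to 4. Without Tbr1 every deletion library thus lay above every wild type library. Of 4 tested, 2 were higher and 0 lower (limma; 2 higher and 1 lower at an unadjusted p under 0.05). Emx2, a homeobox factor of the dorsal forebrain and 1 of the higher genes, averaged 0.576 ± 0.276 RPKM in Ezh2 deletion and 0.104 ± 0.0956 RPKM in wild type (SD, n = 4 each; limma adjusted p = 0.0484). The Emx2 call held in 6 of 19 alternatives. It was lost at pseudocounts of 1 and 0.05 and without the filter, and when any library but Ezh2 deletion 3 was left out, with limma adjusted p of 0.0539 to 0.139 for the libraries. The part of forebrain markers in the Otx results was not tested.

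**Figure D3:**
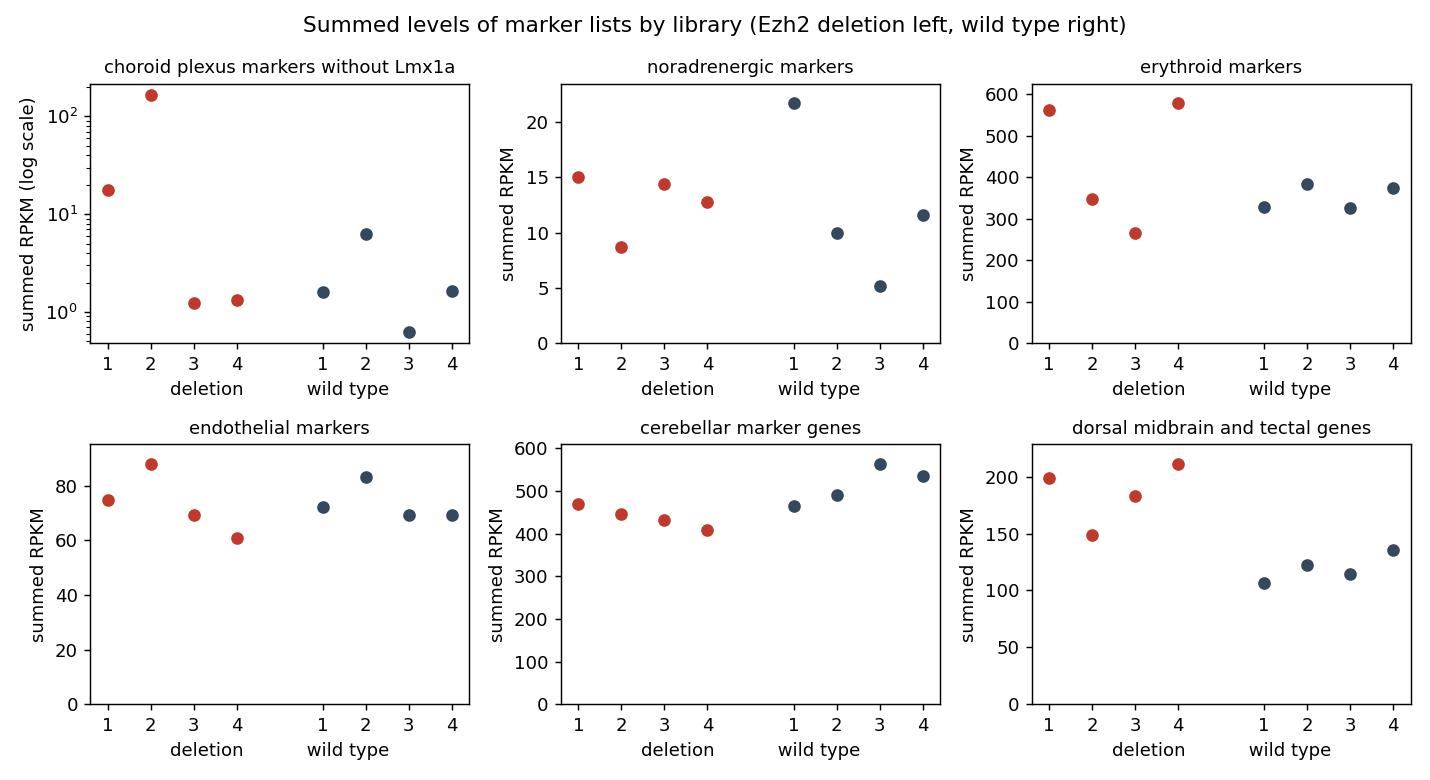
Summed RPKM of 6 marker lists in each library, with Ezh2 deletion 1 to 4 on the left of each panel and wild type 1 to 4 on the right; the choroid plexus panel has a log axis. The choroid plexus sum reaches 164 RPKM in Ezh2 deletion 2, erythroid, endothelial and noradrenergic sums overlap between genotypes, and all deletion libraries lie above all wild type libraries for the dorsal midbrain genes.

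The dopaminergic members were read next. Th, tyrosine hydroxylase, which makes the precursor of dopamine and noradrenaline, was at 10.2, 7.73, 9.40 and 11.5 RPKM in Ezh2 deletion 1 to 4, against 3.51, 6.09, 7.12 and 7.07 RPKM in wild type 1 to 4. All deletion libraries lay above all wild type libraries, by a narrow margin between Ezh2 deletion 2 and wild type 3. The difference of 0.72 (SE 0.220) did not pass over all genes (limma adjusted p = 0.131), and the exact two-sided permutation p was 0.0286. Groups set apart in this direction were found for 3 of the 9 tested members, Pou4f1, Tal1 and Th, and for 6.79% of all genes tested. The opposite separation held for 0 members and 5.61% of all genes tested.

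Nr4a2, the nuclear receptor also known as Nurr1 that dopaminergic neurons need, was at 14.7, 7.76, 11.9 and 12.1 RPKM in Ezh2 deletion 1 to 4, against 11.4, 6.66, 4.45 and 7.74 RPKM in wild type 1 to 4. Wild type 1 lay above Ezh2 deletion 2, so the groups overlapped, and the difference of 0.64 (SE 0.299) did not pass (limma adjusted p = 0.321), and was 0.42 without wild type 3. Slc6a3, the dopamine transporter and the most specific of these markers, was between 0.0498 and 0.103 RPKM in Ezh2 deletion and between 0.0198 and 0.125 RPKM in wild type, below the filter. Pitx3, a factor that defines midbrain dopaminergic neurons, was at most 0.0276 RPKM in Ezh2 deletion and 0.0344 RPKM in wild type. Other genes of dopaminergic neurons were higher in level and are named after their values were seen. Drd2, a dopamine receptor, averaged 1.64 ± 0.252 RPKM in Ezh2 deletion and 1.06 ± 0.219 RPKM in wild type (SD, n = 4 each), with no overlap between the groups, and was not called (limma adjusted p = 0.106). Ret, a receptor of neurotrophic factors, averaged 5.83 ± 0.555 RPKM in Ezh2 deletion and 4.54 ± 0.545 RPKM in wild type (SD, n = 4 each; limma adjusted p = 0.109). Slc18a2, the vesicular monoamine transporter, averaged 2.20 ± 0.149 RPKM in Ezh2 deletion and 2.23 ± 0.738 RPKM in wild type (SD, n = 4 each; limma adjusted p = 0.967).

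Noradrenergic neurons of the hindbrain also use Th. Their 4 markers summed to 15.0, 8.69, 14.4 and 12.7 RPKM in Ezh2 deletion 1 to 4, against 21.7, 9.97, 5.15 and 11.6 RPKM in wild type 1 to 4. Wild type 1 had the highest noradrenergic sum and the lowest Th. Of the 4 markers 0 were called (limma; 0 at an unadjusted p under 0.05). Nr4a2 was highest in the same library of each genotype as the noradrenergic sum, Ezh2 deletion 1 and wild type 1, and their relation was not tested.

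**Figure D4:**
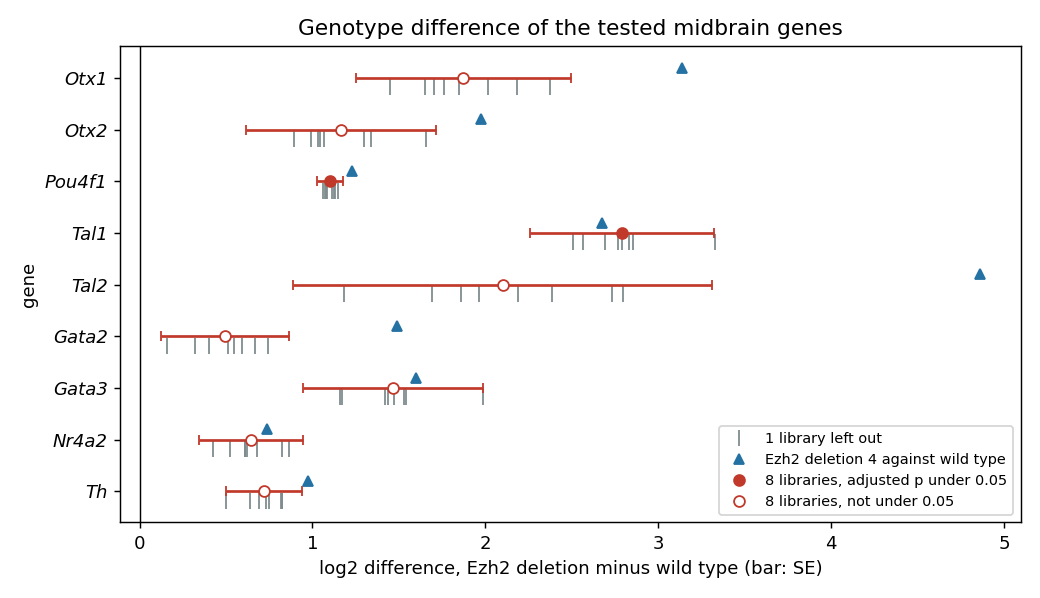
Log2 difference (Ezh2 deletion minus wild type) of the 9 tested members with its SE, filled where the limma adjusted p is under 0.05; ticks leave out 1 library each and triangles set Ezh2 deletion 4 alone against wild type. Pou4f1 stays between 1.06 and 1.15 with any library left out, whereas Tal2 ranges from 1.18 to 2.79 and reaches 4.86 in Ezh2 deletion 4.

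RPKM is scaled to gene length, so levels can be ordered among the members. In Ezh2 deletion the order of mean levels was Pou4f1 (14.9 ± 1.29 RPKM), Otx2 (13.8 ± 7.05 RPKM), Nr4a2 (11.6 ± 2.88 RPKM), Tal1 (9.78 ± 1.56 RPKM), Th (9.72 ± 1.59 RPKM) and Tal2 (9.29 ± 12.2 RPKM), each differing from the next by less than the larger SD of the pair. Otx1 (1.97 ± 1.60 RPKM), Gata3 (1.64 ± 0.182 RPKM) and Gata2 (0.831 ± 0.595 RPKM) followed, and Slc6a3 was lowest at 0.0816 ± 0.0251 RPKM. In wild type Nr4a2 (7.57 ± 2.92 RPKM), Pou4f1 (6.80 ± 0.358 RPKM), Th (5.95 ± 1.69 RPKM) and Otx2 (5.45 ± 2.06 RPKM) came first, again with overlapping spreads. Tal1 (1.61 ± 1.70 RPKM), Tal2 (0.764 ± 0.505 RPKM), Gata3 (0.635 ± 0.778 RPKM), Gata2 (0.491 ± 0.303 RPKM) and Otx1 (0.268 ± 0.267 RPKM) were lower and overlapped each other (SD, n = 4 throughout).

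Read library by library, the members lay above all wild type libraries in 4 of 9 genes in Ezh2 deletion 1, 5 in Ezh2 deletion 2, 7 in Ezh2 deletion 3 and 9 in Ezh2 deletion 4. Over all genes tested the shares were 23.2%, 23.3%, 23.0% and 28.3%. Ezh2 deletion 4 was also the highest deletion library for 7 of the 9, all but Tal1 and Nr4a2, where this held for 28.9% of all genes tested. It is the deletion library with Y-linked RNA and the highest Ezh2 level, 64.4 RPKM. The part of either in these values was not tested.

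Other genes of the midbrain and its border are given beside these changes, from lists chosen with earlier results of these data known. Over all genes tested 2.71% were higher and 0.742% lower (limma), and 9.74% were higher at an unadjusted p under 0.05. Of 10 tested dorsal midbrain and tectal genes 6 were higher and 0 lower (limma; 7 higher and 0 lower at an unadjusted p under 0.05), with a median log2 difference of 1.03. Barhl2, a homeobox factor of the neural tube roof, averaged 5.57 ± 1.24 RPKM in Ezh2 deletion and 1.12 ± 0.600 RPKM in wild type, a difference of 2.17 (SE 0.309, limma adjusted p = 0.00612). Lhx2, a LIM-homeodomain factor, rose by 1.33 on the log2 scale and Pou4f2, a paralog of Pou4f1, by 1.26, with 3.53 ± 0.139 RPKM in Ezh2 deletion and 1.33 ± 0.189 RPKM in wild type. Meis2, a cofactor of Otx2 in the tectum and the most abundant of the list, averaged 76.8 ± 7.58 RPKM in Ezh2 deletion and 43.3 ± 3.51 RPKM in wild type (limma adjusted p = 4.65e-04; all SD, n = 4 each). Tcfap2d was also higher, but not without Ezh2 deletion 3 (limma adjusted p = 0.0567), while the Cre driver gene Pax7 averaged 6.78 ± 1.66 RPKM in Ezh2 deletion and 3.52 ± 1.75 RPKM in wild type and was not called (limma adjusted p = 0.156).

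**Figure D5:**
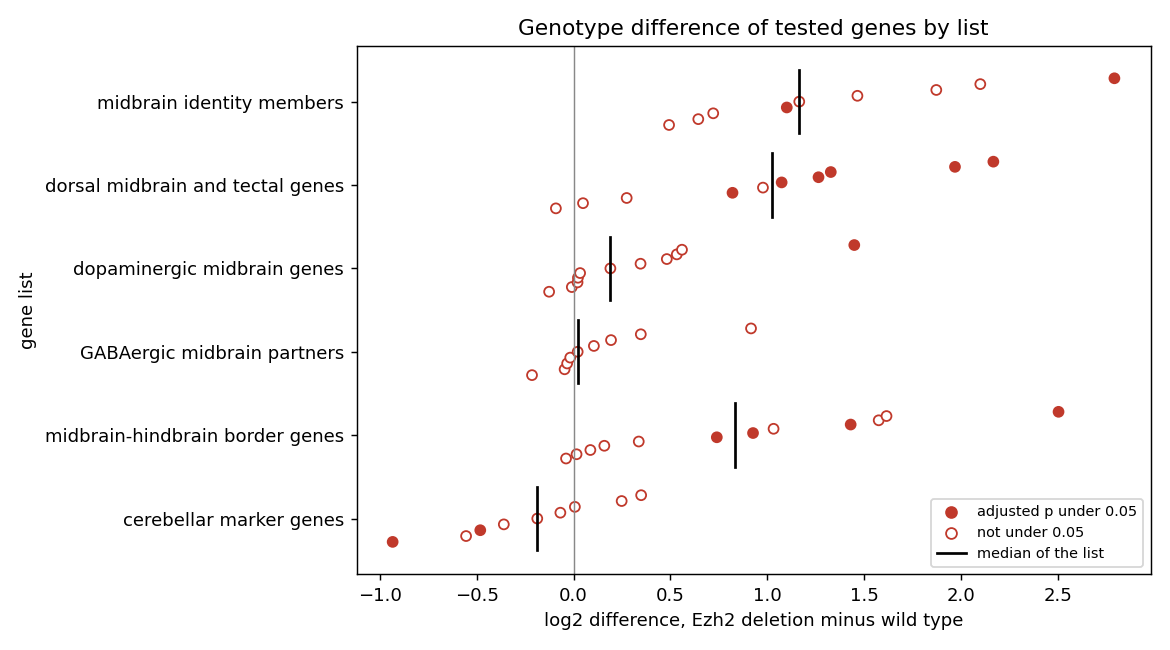
Log2 difference (Ezh2 deletion minus wild type) of every tested gene in 6 lists, filled where the limma adjusted p is under 0.05, with the list's median as a bar. The medians are 1.17 for the midbrain identity genes, 1.03 for dorsal midbrain genes, 0.19 for dopaminergic genes, 0.021 for GABAergic partners, 0.83 for border genes and -0.19 for cerebellar markers.

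Of the 15 genes listed for dopaminergic neurons 11 were tested, of which 1 was higher and 0 lower (limma; 5 higher and 0 lower at an unadjusted p under 0.05), with a median of 0.19. The higher gene was Lmx1b, a LIM-homeodomain factor of the isthmus and of dopaminergic neurons, at 25.4 ± 4.39 RPKM in Ezh2 deletion and 9.33 ± 2.81 RPKM in wild type (SD, n = 4 each; limma adjusted p = 0.0116). En2, a marker of both sides of the border and the most abundant of the list, averaged 103 ± 12.9 RPKM in Ezh2 deletion and 102 ± 13.1 RPKM in wild type. None of the 9 tested partners of GABAergic midbrain neurons was called (limma; 0 higher and 1 lower at an unadjusted p under 0.05), and their median was 0.021. Ldb1, the adaptor that joins Tal and LIM proteins, was the most abundant, at 114 ± 12.6 RPKM in Ezh2 deletion and 116 ± 8.97 RPKM in wild type.

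Of 12 genes of the midbrain-hindbrain border 4 were higher and 0 lower (limma; 7 higher and 0 lower at an unadjusted p under 0.05), with a median of 0.83. They were Pax8 (2.50 on the log2 scale), Sp8 (1.43), Pax2 (0.93) and Spry1 (0.74), with Pax8 and Pax2 paired-box factors of the isthmus and Spry1 a feedback inhibitor of FGF signalling. Spry2, the most abundant, averaged 33.2 ± 2.31 RPKM in Ezh2 deletion and 34.3 ± 5.01 RPKM in wild type. Gbx2, the hindbrain counterpart of Otx2 at the border and named after its values were seen, averaged 18.2 ± 2.75 RPKM in Ezh2 deletion and 17.0 ± 1.68 RPKM in wild type and was not called (limma adjusted p = 0.730). Of 9 cerebellar markers 2 were lower, Skor2 and Foxp2, both genes of Purkinje cells, by -0.93 and -0.48 on the log2 scale, and 0 were higher (limma; 2 higher and 4 lower at an unadjusted p under 0.05). The Foxp2 call held in 9 of 20 alternatives and was lost when any library but Ezh2 deletion 1 or 4 was left out, with limma adjusted p of 0.0532 to 0.110. Of the 15 called genes named from these and the marker lists, 10 were still called with a term for Y-linked RNA, which rests the difference on Ezh2 deletion 4. By limma adjusted p, Tlx3 (0.162), Slc6a4 (0.139), Barhl2 (0.0544), Lmx1b (0.130) and Skor2 (0.0586) were not, and all 15 kept their direction.

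Profiles most like those of 3 members were sought among 12585 tested genes with a mean of at least 1 RPKM, by the mean absolute difference of centred log2 values over the 8 libraries. Nearest to Pou4f1 were Nab2 (0.058), Bmi1 (0.088), Zar1 (0.088), Plcd1 (0.098) and Tpm2 (0.11). Nearest to Otx2 were Gli1 (0.34), Capn6 (0.36), Car14 (0.39), Alpl (0.43) and Sp8 (0.43), the last also on the border list. Nearest to Gata3 were Kdelr3 (0.39), Cox6b2 (0.42), Skap2 (0.44), 6330527O06Rik (0.48) and Zfp503 (0.50). Nab2, for example, was at 3.54, 3.12, 3.05 and 3.61 RPKM in Ezh2 deletion 1 to 4, against 1.43, 1.18, 1.40 and 1.69 RPKM in wild type 1 to 4. These genes were picked for likeness, so their levels carry no test here.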

How the data were processed

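The authors deposited 1 table of RPKM values with 1 column per library, made from polyadenylated RNA per the labels' protocols. Bowtie, TopHat, Cuffdiff and SICER and the build mm9 are listed, per the submitters' processing notes, without versions. The annotation and strand use are not stated, so overlapping or antisense genes are uncertain. The 2 H3K27me3 ChIP-seq samples were not analysed here. RPKM values are not counts: total depth is unknown and no count model was used. An exact 0 can be a failed estimate, since every library lists Tuba1a, normally abundant, at 0.

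Genes with a mean of at least 0.25 RPKM were tested on log2(RPKM + 0.25) with limma 3.58.1 (R 4.3.3; robust, trended eBayes), two-sided, with Benjamini-Hochberg adjustment over all 14279 genes tested and a threshold of 0.05. This scale understates the change of low genes. Single genes were also compared by exact permutation over 70 arrangements. The 10 members and the other 14 lists were chosen with earlier results of these data known. Besides the members and Ezh2, the text names by rule up to 4 called genes with the largest change and the most abundant gene of each list, and 5 nearest profiles for each of 3 members. Genes outside the rule (Gata1, Fev, Ttr, Scn10a, Mcpt4, Pitx3, Pax7, Tcfap2d and those said to be named later) were chosen after their values were seen. Some genes that the rule names are not reported here. Of 141 list symbols 2 were matched through older names and 2 were not in the table. No 2 libraries held identical values. The 20 alternatives covered pseudocount, filter, scaling, variance model, weights, a replicate block, a term for Y-linked RNA, the threshold and each library left out.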

Additional observations from a re-analysis of the deposited data

Results flagged for a closer look

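Among the 22 groups of 4 libraries examined for the members and Ezh2, 3 held a library far from the others by Dixon's test on RPKM. The log2 scale of the other tests was not used for it. Chance flags about 1 of 20 groups where values are normally distributed, which RPKM values need not be. Tal1 in wild type 2 was at 4.14 RPKM, against 0.546 to 1.11 RPKM in the other wild type libraries. Gata2 in Ezh2 deletion 4 was at 1.71 RPKM, against 0.433 to 0.628 RPKM in the other deletion libraries. Slc6a3 in wild type 3 was at 0.125 RPKM, against 0.0198 to 0.0369 RPKM in the other wild type libraries, a level at which few reads decide the value.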

How the results depend on the processing

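All 9 tested members kept a positive log2 difference in every alternative that tested them, and Pou4f1 was called in all 20. Tal1 was called in 11 of 20. It had 2.85 with library weights (limma adjusted p = 0.0542) and 2.67 with a term for Y-linked RNA, which leaves 1 called member each. With 1 library left out Tal1 ranged from 2.51 to 3.33 and 1 to 3 members were called. Ezh2 had -0.29 with the term for Y-linked RNA and did not pass (limma adjusted p = 0.11). Over all genes, 387 were higher and 106 lower. Counts were 614 and 248 at a threshold of 0.1, 223 to 352 and 40 to 100 with 1 library left out, and 477 and 55 with erythroid and Y-linked genes and Xist removed, where higher genes made up 89.7% of calls against 78.5%. Lower genes numbered 181 with library weights and 232 with the term for Y-linked RNA. With the replicate number as a block, 300 genes were higher and 53 lower, and Pou4f1 and Tal1 were still called. Same-numbered libraries correlated with r of 0.0034 to 0.087 over genes, so the numbers were not taken as pairing. The causes of these shifts were not tested. Unknown total depth limits the low members Slc6a3, Gata2 and Otx1.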

Other observations

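Some midbrain and border genes that the naming rule did not take are given as values, chosen after they were seen. Helt, a selector of GABAergic midbrain neurons, was at 0.136, 0.0864, 0.244 and 1.60 RPKM in Ezh2 deletion 1 to 4, against 0.0912, 0.145, 0.0278 and 0 RPKM in wild type 1 to 4, so its highest value fell in the library with the highest Tal2 and Gata2 (limma adjusted p = 0.375). Fgf17, a ligand of the isthmus, was at 17.3, 31.4, 25.7 and 41.7 RPKM in Ezh2 deletion 1 to 4, against 3.35, 16.3, 9.77 and 12.5 RPKM in wild type 1 to 4 (limma adjusted p = 0.202). Nkx6-1, a ventral progenitor factor, was at 1.01 RPKM in wild type 2 and at most 0.127 RPKM in every other library. Foxa1, a floor plate and dopaminergic factor, was at 0.277, 0.442, 0.358 and 0.369 RPKM in Ezh2 deletion 1 to 4 and listed at 0 in all wild type libraries.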
